A study of Mus musculus with 12 samples.

Results

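G protein-coupled receptors were taken from the mRNA tables of a study of TGFβ in AKR-2B, a line of mouse fibroblasts cultured in soft agar, where they form colonies. A gene counted as a member if its symbol in the day 2, day 4 or day 8 table began with a name used for such receptors (Gpr and a number, Gprc, Htr, F2r, P2ry, Fzd, Lgr, Adra, Ptgfr and the like). This gave 43 of the 2091 genes in the 3 tables, with 20 of 998 at day 2, 25 of 998 at day 4 and 16 of 998 at day 8. One of the 43, Adrbk2 (now Grk3), matched only through the letters of its name: it codes for a kinase that acts on receptors and is kept apart, leaving 42 receptor genes. The compared groups were colonies given 25 ng/mL TGFβ and colonies given vehicle, each recovered at days 2, 4 and 8, with 1 mRNA library per condition and day. Both groups were the same cell line in soft agar, a gel that keeps cells from attaching to a dish, and the labels give no genetic change for either.

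G protein-coupled receptors cross the cell membrane several times and pass a signal from outside the cell to G proteins inside, which then act on enzymes such as adenylyl cyclase and phospholipase C. They are grouped by what activates them, among others proteases, monoamines, nucleotides, peptides and lipids, and those with no accepted ligand are called orphans. TGFβ itself signals through receptor kinases and SMAD proteins, and fibroblasts are known to meet both kinds of signal during wound repair and fibrosis.

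Each table holds 1 ratio per gene, made by the authors, with no value per library. Being listed is what chose the members, so their ratios are a description and no test was made. The tables hold 499 genes above 1 and 499 below 1 at each day, and absence from them says nothing of a gene's change. No direction stands in the headers, and the ratios were read as TGFβ over vehicle because 10 of 11 listed genes from a list of 22 TGFβ targets then lay above 1 only (Timp3 lay below). This reading is an assumption, and the list behind it was drawn up with earlier results known. Of 5 contractile genes that TGFβ is known to raise in fibroblasts, looked up after their values were seen, Acta2, Myl9 and Mylk were listed, all below 1 at each day, with Acta2 at 0.0560, 0.0791 and 0.0595 by the authors' deposited table. If the tables run the other way, every side and every pair of reads given for TGFβ and vehicle changes places. Of all 2994 ratios, 99.9% were a ratio of 2 odd whole numbers in lowest terms, the form of read numbers plus 0.5 without scaling for library size, and so were all 61 member ratios. The smallest pair of reads that gives a ratio could therefore be worked out. It is a lower bound on the reads in each library, since odd multiples of both terms give the same ratio. A larger term of 41 stands for at least 20 reads in 1 library. Library totals of mRNA were not used here, so each ratio still carries any depth gap between its 2 libraries. Dividing by the geometric centre of each table's edges would multiply all ratios of day 2 by 1.53 and those of days 4 and 8 by 1.18. In colonies sequenced as a whole, more cells of a type and more RNA per cell cannot be told apart.

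At each day more members were listed above 1 than below, many of them on few reads. At day 2, 13 of 20 members lay above 1 and 7 below, at day 4 15 and 10 of 25, and at day 8 12 and 4 of 16, where by construction 50.0% of each table lies above 1. Without Adrbk2 the day 4 count was 15 above and 9 below. Counted once per gene, 25 of the 42 receptor genes (59.5%) were listed above 1 only, 15 below 1 only and 2 on both sides. Of all 2091 genes 50.3% were listed above 1 only, and whether the shares differ was not tested. Most of these ratios rest on few reads: 7 of 20, 9 of 25 and 7 of 16 member ratios had a larger term of at least 41 at days 2, 4 and 8, beside 29.7%, 39.4% and 42.3% of all ratios. In 12, 14 and 10 member ratios the smallest pair had 0 reads in 1 library (60.0%, 56.0% and 62.5%), beside 66.8%, 57.2% and 56.6% of each table. Within the better-counted set, members above 1 against those below numbered 4 against 3 at day 2, 8 against 1 at day 4, and 6 against 1 at day 8, where the whole tables had 30.1%, 53.9% and 46.0% above 1. Of the 12 members with such a ratio at any day, 9 lay above 1 and 3 below, beside 42.4% of 662 genes above 1 only.

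**Figure D1:**
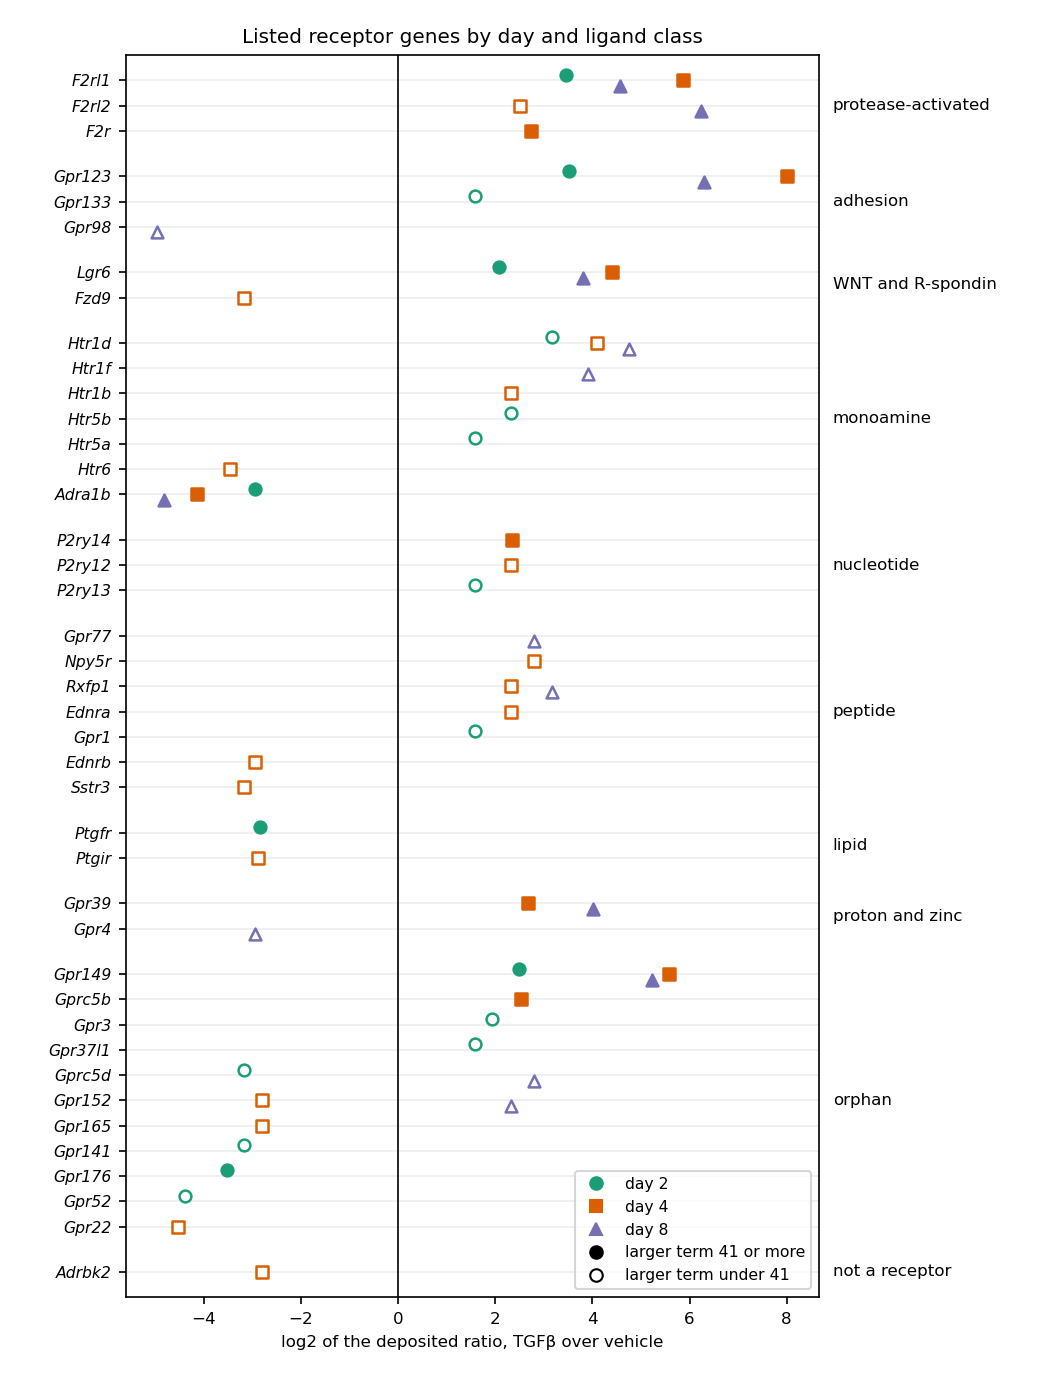
Each row is one of the members named in the text and each point its log2 ratio of TGFβ over vehicle by the authors' deposited table at day 2, 4 or 8, grouped by ligand class; filled points have a larger term of 41 or more (at least 20 reads in 1 library) and open points fewer. Gpr123 at day 4 lies farthest right, the 3 protease-activated receptor genes all lie right of 0, and Gprc5d and Gpr152 have open points on both sides.

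The edges of the tables lie at very small read numbers. The smallest listed ratio above 1 was 3 at day 2, the ratio given by 1 read with TGFβ and 0 with vehicle, and 5 at days 4 and 8, given by 2 reads and 0. The largest ratio below 1 was 0.143 at each day, given by 0 reads with TGFβ and 3 with vehicle. The upper edge at day 2 held 186 genes, 6 of them members (Gpr1, Gpr37l1, Gpr133, Htr5a and P2ry13 among them). At day 4 the upper edge held 4 members (Ednra, Htr1b, P2ry12 and Rxfp1) and the lower edge 3 (Adrbk2, Gpr152 and Gpr165), and at day 8 the upper edge held Gpr152. These 14 ratios carry no more than 3 reads in the smallest pair. Each side of each table ends at 499 genes within a group of equal ratios, with 186, 82 and 108 genes at the upper edges of days 2, 4 and 8. Whether other genes with the same ratios were left out is not known. The listing of these edge members may therefore be arbitrary, and the counts by side, day and ligand class include them.

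**Figure D2:**
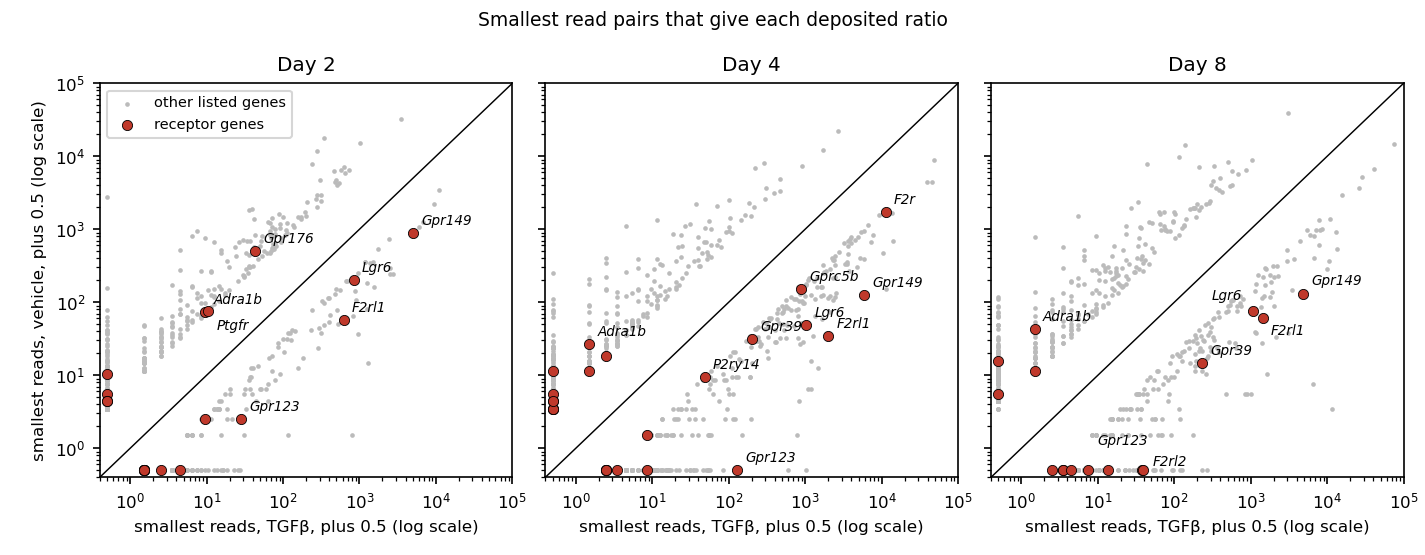
Smallest read numbers, plus 0.5, that give each deposited ratio, TGFβ on the horizontal and vehicle on the vertical axis (both log scales), for days 2, 4 and 8; red points are receptor genes, grey points all other listed genes and the line marks equal reads. Gpr149, F2rl1 and Lgr6 lie well inside the cloud of better-counted genes, while many receptor genes sit on the axes at 0 reads in 1 library.

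A small group of receptor genes was listed at every day. Of the 43 members, 31 were listed at 1 day, 6 at 2 days and 6 at all 3 days. The share at 2 or 3 days was 27.9%, beside 31.9% of all listed genes, and 6 of 43 were listed at all 3 days beside 11.3%. The 6 members of all 3 days were Gpr123, F2rl1, Gpr149, Lgr6 and Htr1d, each above 1 throughout, and Adra1b, below 1 throughout. Among the 6 members of 2 days, F2rl2, Gpr39 and Rxfp1 lay above 1 at both, and Gprc5d and Gpr152 on different sides, as did 7.20% of the 667 genes listed at 2 or 3 days.

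The protease-activated receptors, which are switched on when a protease cuts their outer end, had 3 members listed, each with a larger term of at least 41 at some day. Their family has 4 genes in RefSeq, of which F2rl1, F2r and F2rl2 were listed, all above 1. Of all protein-coding RefSeq symbols 7.32% were listed at any day, and 50.3% of all listed genes lay above 1 only. F2rl1 (13:95511718-95525240), whose receptor answers to trypsin-like proteases, had smallest reads of 622 with TGFβ against 56 with vehicle at day 2, 2003 against 34 at day 4, and 1431 against 60 at day 8. Its reads were higher with TGFβ at each day. Its ratios by the authors' deposited table were 11.02, 58.1 and 23.7 on these days. The exact counting intervals (95%, conditional binomial on the smallest pair, counting error only) were 8.44 to 14.9, 42.0 to 85.3 and 18.4 to 31.4. They do not overlap as deposited, but with ratios divided by the centre of each table's edges day 2 became 12.9 to 22.7 and day 8 21.8 to 37.2, which overlap.

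F2r (13:95601780-95618466), the thrombin receptor, was listed at day 4 only, with smallest reads of 11316 with TGFβ against 1708 with vehicle. Its ratio by the authors' deposited table was 6.62 (counting interval 6.30 to 6.98). F2rl2 (13:95696920-95702768), which thrombin also cuts, had smallest reads of 8 with TGFβ against 1 with vehicle at day 4 and 37 against 0 at day 8. The authors' deposited table put its ratio at 5.67 at day 4 and 75 at day 8. The day 8 value depends on the 0.5 added to 0 reads. With 0 set to 3 reads it came to 12.3, and its counting interval started at 9.54. Within a day the depth of the libraries cancels between genes: at day 4, with ratios of the authors' deposited table, F2rl1 stood at 8.77 times F2r and 10.2 times F2rl2, while F2r was at 1.17 times F2rl2. The 3 genes are neighbours, lying within 191.1 kb of chromosome 13 with Iqgap2, a scaffold protein gene that overlaps F2rl2 and was itself at 23 at day 8 by the authors' deposited table (smallest reads 11 with TGFβ and 0 with vehicle). Reads of F2rl2 and Iqgap2 may not be told apart, since the strand setting of the counting is not given in the sources used here.

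Gpr123 (now Adgra1, 7:139834097-139878088), an adhesion receptor known mainly from brain, had the largest ratio of all members. Its smallest reads were 28 with TGFβ against 2 with vehicle at day 2, 129 against 0 at day 4, and 39 against 0 at day 8. The vehicle libraries were thus at or near 0 at every day in the smallest pair. The authors' deposited table put the ratio at 11.4, 259 and 79 in day order, and the second of these was 4th of the 499 above 1. The counting interval at day 2 was 3.53 to 121. With 0 vehicle reads set to 3, the ratio came to 43 at day 4 and 13 at day 8. The counting intervals of the pairs with 0 started at 34.5 and 10.1, with no upper end.

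Gpr149 (3:62529430-62605440), an orphan receptor studied in mouse oocytes, was the best-counted recurring member. The smallest pairs were 4952 reads with TGFβ against 876 with vehicle at day 2, 5965 against 125 at day 4, and 4890 against 131 at day 8. These numbers are lower bounds without scaling for depth, so they give no change in level between days for either condition. By the authors' deposited table its ratios were 5.65, 47.5 and 37.2 in day order (counting intervals 5.26 to 6.08, 40.0 to 57.4 and 31.4 to 44.7). The interval of day 2 lies below the others, and those of days 4 and 8 overlap.

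Lgr6 (1:134983300-135105374), a receptor for R-spondins that raises WNT signalling and marks stem cells of the skin, followed the same order of days. Its smallest reads were 837 with TGFβ against 199 with vehicle at day 2, 1023 against 48 at day 4, and 1074 against 76 at day 8. Its ratio came to 4.20, 21.1 and 14.05 by the authors' deposited table, with counting intervals of 3.60 to 4.93, 16.0 to 29.1 and 11.2 to 18.1. Set against each other within a day, the ratio of Gpr149 was 1.35, 2.25 and 2.65 times that of Lgr6 at days 2, 4 and 8, and that of F2rl1 was 1.95, 1.22 and 0.636 times that of Gpr149. Gpr123, F2rl1, Gpr149 and Lgr6 each had their highest ratio at day 4. For Gpr149 and Lgr6 the intervals of days 4 and 8 overlap, and those of Gpr123 on these days have no upper end. A depth gap between the libraries of 1 day would move all of these ratios together.

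**Figure D3:**
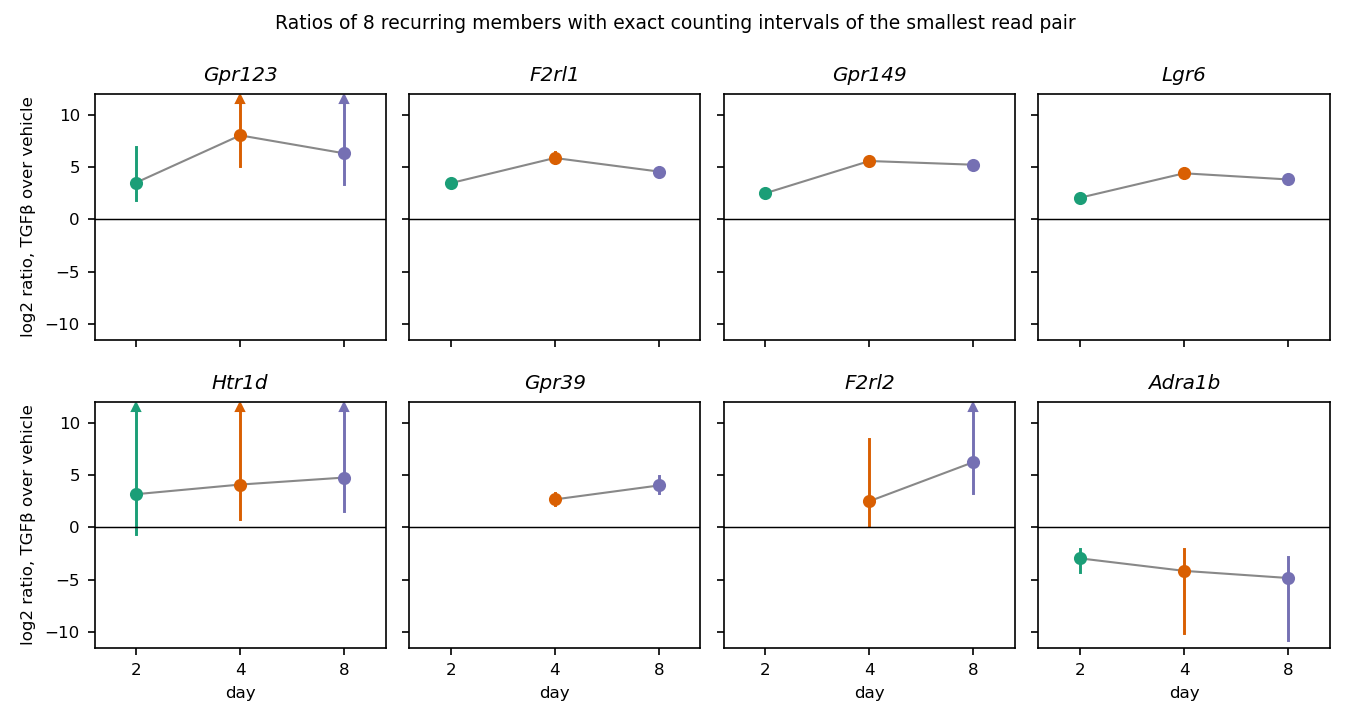
Log2 ratio of TGFβ over vehicle by the authors' deposited table at days 2, 4 and 8 for 8 members listed at 2 or 3 days; bars are exact 95% counting intervals of the smallest read pair and arrows mark intervals with no upper end. F2rl1, Gpr149 and Lgr6 have bars about as small as their points, whereas Gpr123, Htr1d and F2rl2 have open-ended ones, and Adra1b lies below 0 at each day.

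Gpr39 (1:125676996-125873862), a receptor that senses zinc, had smallest reads of 200 with TGFβ against 31 with vehicle at day 4 and 232 against 14 at day 8. Its ratio by the authors' deposited table was 6.37 at day 4 (counting interval 4.40 to 9.75) and 16.0 at day 8 (9.68 to 30.8), and it was not listed at day 2. Lypd1 overlaps this gene and was also listed, at 3 on day 2 and 5 on day 8 by the authors' deposited table, with at most 2 reads in the smallest pair. Rxfp1, the receptor for relaxin, a hormone known to oppose fibrosis, was listed at 5 at day 4 and 9 at day 8 by the authors' deposited table. These correspond to 2 and 4 reads with TGFβ and 0 with vehicle, which is too few to set a size.

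The start regions of the recurring members were searched for letters that SMAD proteins and AP-1, partners in TGFβ responses, are known to bind. RefSeq start windows (GRCm38.p6, the build of mm10) were found for 33 of the 43 members, and the 250 bases before each start were searched on both strands. The SMAD letters CAGAC (reverse complement GTCTG) were present for 4 of the 5 members with a window among the 8 listed above 1 at 2 or 3 days, for 13 of 19 members listed above 1 only and for 4 of 13 listed below 1 only, beside 42.2% of 32851 starts. The AP-1 letters TGANTCA, with N for any base, were present for 2 of 5, 4 of 19 and 1 of 13, beside 6.75% of starts, and the CREB letters TGACGTCA for 0 of 33 members, beside 1.55%. Genes with several starts had several chances, so the shares are not on one scale with that of all starts. The stretches shown belong to 5 of the 7 members listed at 2 or 3 days with at least 20 reads in 1 library, F2rl1 and Gpr149 having no window in the table used, cut to the bases outside the annotated gene and exons, each 5′ to 3′ on the gene's strand. Capitals mark CAGAC or GTCTG. A match is a description of letters and not a binding site, and one in the removed bases is not shown.
Gpr123, chr7:139833924-139834096, plus strand: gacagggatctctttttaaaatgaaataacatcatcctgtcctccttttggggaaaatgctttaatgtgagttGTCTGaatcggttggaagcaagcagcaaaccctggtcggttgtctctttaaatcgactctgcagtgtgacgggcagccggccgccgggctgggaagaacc
Gpr39, chr1:125676746-125676994, plus strand: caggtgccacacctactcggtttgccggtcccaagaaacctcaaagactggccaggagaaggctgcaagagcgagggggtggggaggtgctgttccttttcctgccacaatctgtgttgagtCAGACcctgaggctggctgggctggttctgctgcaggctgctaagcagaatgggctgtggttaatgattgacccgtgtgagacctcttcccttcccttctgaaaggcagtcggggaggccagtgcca
Lgr6, chr1:135105375-135105526, minus strand: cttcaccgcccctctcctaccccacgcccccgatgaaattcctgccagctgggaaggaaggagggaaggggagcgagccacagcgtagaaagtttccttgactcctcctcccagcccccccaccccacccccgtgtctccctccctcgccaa
F2rl2, chr13:95696670-95696852, plus strand: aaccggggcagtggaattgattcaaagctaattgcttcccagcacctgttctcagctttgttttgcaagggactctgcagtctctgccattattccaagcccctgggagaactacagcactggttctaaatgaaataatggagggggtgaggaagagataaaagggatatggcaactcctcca
Adra1b, chr11:43901251-43901487, minus strand: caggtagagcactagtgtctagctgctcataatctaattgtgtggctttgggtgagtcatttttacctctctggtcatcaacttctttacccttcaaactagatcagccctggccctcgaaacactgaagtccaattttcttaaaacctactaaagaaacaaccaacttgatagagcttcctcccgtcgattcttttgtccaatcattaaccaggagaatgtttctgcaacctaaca
Of the printed stretches, those of Gpr123 and Gpr39 hold 1 SMAD match each and those of Lgr6, F2rl2 and Adra1b 0, while TGANTCA occurs 1 time each in Gpr39, F2rl2 and Adra1b.

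Of the listed monoamine receptors, 5 of 7 lay above 1, beside 50.3% of all listed genes above 1 only. Of 14 Htr genes in RefSeq (the Htr3 genes among them code for channels), 6 were listed, 5 above 1 and 1 below, beside 7.32% of 21900 protein-coding RefSeq symbols listed at any day. Htr1d, a serotonin receptor that inhibits adenylyl cyclase, had smallest reads of 4 with TGFβ at day 2, 8 at day 4 and 13 at day 8, with 0 for vehicle at each day. The authors' deposited table gave it ratios of 9, 17 and 27, and with 0 set to 3 reads they came to 1.33, 2.67 and 4.33. The counting interval at day 2 starts at 0.66 and so includes 1, and those of days 4 and 8 start at 1.71 and 3.05. Htr1f and Htr1b, of the same inhibitory group, stood at 15 (day 8, 7 reads with TGFβ and 0 with vehicle) and 5 (day 4, 2 and 0 reads) by the authors' deposited table. Htr5b and Htr5a were listed at day 2 at 5 and 3 by the authors' deposited table, from 2 and 1 reads with TGFβ and 0 with vehicle. Htr6, which stimulates adenylyl cyclase, was 11-fold lower at day 4 by the authors' deposited table, from 0 reads with TGFβ and 5 with vehicle. The serotonin counts therefore rest on 13 reads or fewer in any smallest pair.

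Adra1b (11:43774605-43901250), an adrenergic receptor that acts through phospholipase C, was the recurring member below 1 with the most reads. Its smallest reads were 9 with TGFβ against 73 with vehicle at day 2, 1 against 26 at day 4, and 1 against 42 at day 8. The TGFβ number was the lower one at each day. By the authors' deposited table it was lower by 7.74-fold, 17.7-fold and 28.3-fold, as ratios of 0.129, 0.0566 and 0.0353. The counting intervals of these ratios were 0.0542 to 0.247, 0.000938 to 0.234 and 0.000589 to 0.1401, which overlap. It was the one listed gene of 9 whose RefSeq symbols begin with Adra or Adrb. Dopamine and muscarinic receptors, with 5 genes each, had 0 listed, beside 7.32% of protein-coding RefSeq symbols listed at any day. In families this small a 0 is no result about the family.

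Both listed prostanoid receptors lay below 1, beside 992 of all 2091 listed genes below 1 only. Ptgfr (3:151798610-151837528), the receptor for prostaglandin F, had 10 reads with TGFβ against 75 with vehicle at day 2 and was 7.19-fold lower by the authors' deposited table (ratio 0.139, counting interval 0.0614 to 0.259). Ptgir (7:16906490-16910905), the prostacyclin receptor, had 2 reads with TGFβ against 18 with vehicle at day 4 and was 7.40-fold lower by the authors' deposited table. In RefSeq 7 symbols matched the names used for this family, and not all of them need be receptors. Of 6 lysophosphatidic acid receptors and 5 sphingosine 1-phosphate receptors, 0 were listed, beside 7.32% of protein-coding RefSeq symbols listed at any day.

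The 3 listed nucleotide receptors lay above 1, beside 50.3% of all listed genes above 1 only, and sit side by side. P2ry14 (3:59114623-59153492), which senses UDP-glucose, had 48 reads with TGFβ against 9 with vehicle at day 4 and stood at 5.11 by the authors' deposited table (counting interval 2.59 to 12.4). Its ADP-sensing neighbours P2ry12 and P2ry13 stood at 5 (day 4) and 3 (day 2) by the authors' deposited table, with 2 and 1 reads with TGFβ and 0 with vehicle. These 3 genes lie within 148.4 kb of chromosome 3, and each overlaps Med12l, which was not listed. No day listed all of them. In all, 11 of 43 members overlap another coding gene, and for 2 of them, F2rl2 and Gpr39, that gene was listed too.

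Of the peptide receptors, 5 genes lay above 1 and 2 below, beside 50.3% of all listed genes above 1 only. All had larger terms under 41. The endothelin receptors were on different sides at day 4: Ednra, which drives contraction, stood at 5 by the authors' deposited table (2 reads with TGFβ and 0 with vehicle), and Ednrb was 7.67-fold lower (1 against 11 reads). Npy5r, a neuropeptide Y receptor, stood at 7 at day 4 by the authors' deposited table, and Gpr77, a receptor for complement C5a now called C5ar2, at 7 at day 8, each from 3 reads with TGFβ and 0 with vehicle. Gpr1, which binds chemerin, stood at 3 at day 2 by the authors' deposited table, and the somatostatin receptor Sstr3 was 9-fold lower at day 4 (0 against 4 reads). Fzd9, a WNT receptor and 1 of 10 Fzd genes, was 9-fold lower at day 4 by the authors' deposited table, also from 0 against 4 reads.

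Adhesion receptors other than Gpr123 had few reads. Gpr98 (now Adgrv1), a very large receptor of inner ear hair cells and photoreceptors, was 31-fold lower at day 8 by the authors' deposited table, from 0 reads with TGFβ and 15 with vehicle. Gpr133 (now Adgrd1) stood at 3 at day 2 by the authors' deposited table. Gpr4, a proton sensor, was 7.67-fold lower at day 8 by the authors' deposited table, from 1 read with TGFβ and 11 with vehicle.

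Orphan receptors were even between the sides, with 5 genes above 1, 5 below and 2 on both, beside 50.3% of all listed genes above 1 only. Beside Gpr149, Gprc5b (7:118972040-118995211), a retinoic acid-inducible receptor, had 878 reads with TGFβ against 152 with vehicle at day 4 and stood at 5.76 by the authors' deposited table (counting interval 4.86 to 6.91). Gpr176 (2:118277096-118374549), known from the circadian clock of the mouse brain, had 43 reads with TGFβ against 497 with vehicle at day 2 and was 11.4-fold lower by the authors' deposited table (ratio 0.0874, interval 0.0618 to 0.118). It was the best-counted member below 1 and was not listed at days 4 and 8. Gpr3, which keeps adenylyl cyclase active without a ligand, stood at 3.8 at day 2 by the authors' deposited table, from 9 reads against 2. Gpr52 (day 2) was lower by 21-fold and Gpr22 (day 4) by 23-fold by the authors' deposited table, from 0 reads with TGFβ and 10 and 11 with vehicle. Gpr37l1 at day 2 (3 by the authors' deposited table), Gpr141 at day 2 (9-fold lower) and Gpr165 at day 4 (7-fold lower) rested on at most 4 reads. By the authors' deposited table Gprc5d was 9-fold lower at day 2 but stood at 7 on day 8, and Gpr152 was 7-fold lower at day 4 but stood at 5 on day 8. The kinase gene Adrbk2 was 7-fold lower at day 4 by the authors' deposited table, from 0 reads with TGFβ and 3 with vehicle.

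Genes that carry the receptors' signals onward or supply their ligands were counted in 11 lists, with 42 genes and 62 ratios listed, 22 above 1 and 40 below, beside 50.0% above 1 in the tables. Of the 25 ratios with a larger term of 41 or more, 10 lay above 1 and 15 below, beside 44.6% above 1 of all 1111 such ratios. Each count of listed genes from these lists stands beside 7.32% of 21900 protein-coding RefSeq symbols listed at any day. Of 34 G protein subunit genes 2 were listed: Gng11, a gamma subunit, stood at 7.39, 31.9 and 28.8 at days 2, 4 and 8 by the authors' deposited table (395 against 53, 844 against 26 and 1136 against 39 reads, TGFβ against vehicle). Gnb3, a beta subunit, was 11.7-fold lower at day 8 by the authors' deposited table (1 against 17 reads). Of 7 phospholipase C beta and IP3 receptor genes, Plcb1 was lower by 7.19-fold (day 4) and 10.7-fold (day 8) by the authors' deposited table (80 against 578 and 181 against 1947 reads). Plcb2 was 9-fold lower at both days by the authors' deposited table, but from only 0 against 4 reads each time. With 0 set to 3 reads it came to 1.33-fold lower. Of 23 RGS genes, which speed up the shutting off of G proteins, 5 were listed. Rgs5 was 129-fold lower at day 8 by the authors' deposited table from 0 against 64 reads. With 0 set to 3 reads it came to 21.3-fold lower. Rgs9 and Rgs11 lay below 1 and Rgs8 above, on at most 7 reads. Of 42 adenylyl cyclase, phosphodiesterase and protein kinase A genes, Pde10a was lower by 10.6-fold (day 4) and 13.8-fold (day 8) by the authors' deposited table (2 against 26 and 2 against 34 reads). Pde1b stood at 9.51 on day 4 by the authors' deposited table (1203 against 126 reads). Pde1a (below 1, day 2) and Pde1c (above 1, day 8) had at most 4 reads. Apart from Adrbk2, 0 of the receptor kinase and arrestin genes were listed.

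**Figure D4:**
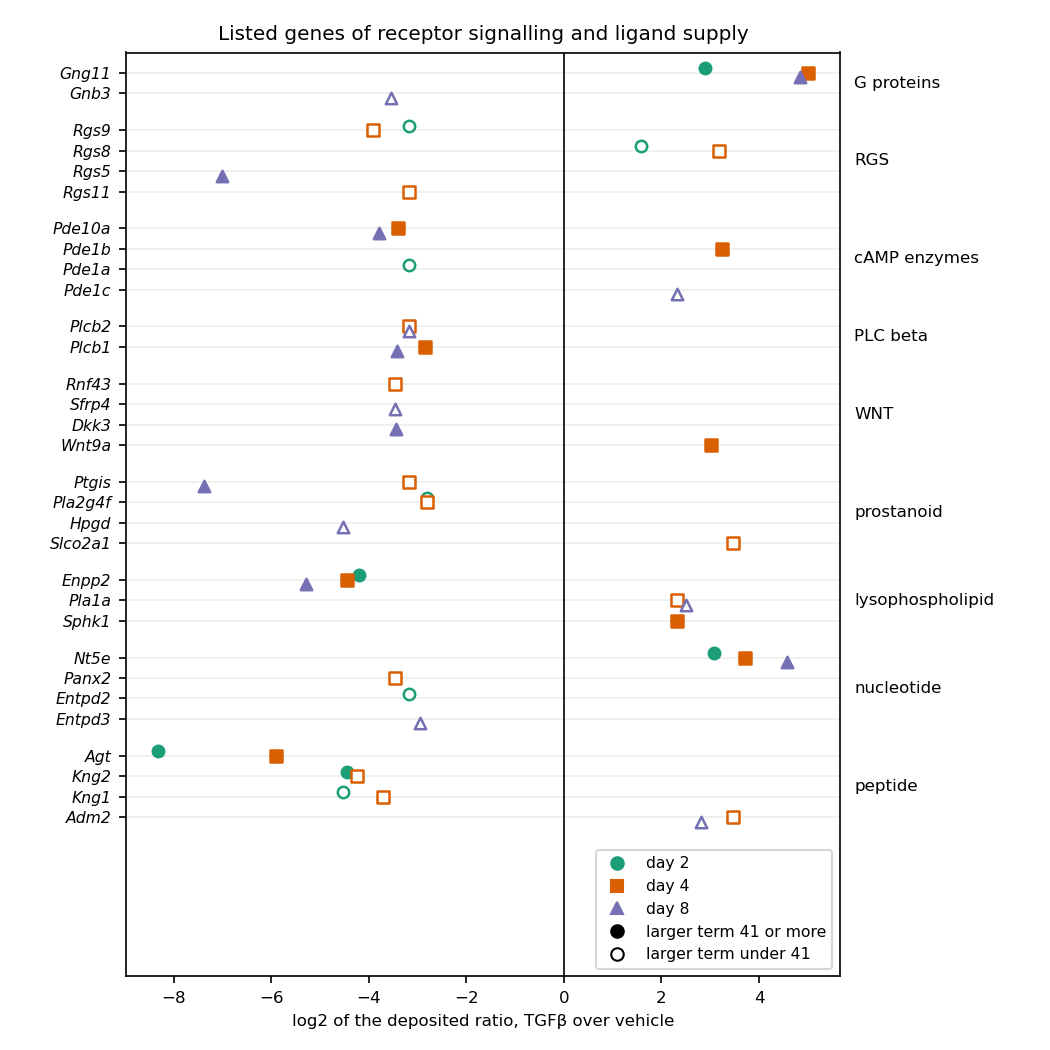
Log2 ratio of TGFβ over vehicle by the authors' deposited table at days 2, 4 and 8 for up to 4 listed genes per signalling or ligand list. The list of Ramp2, Gprin3 and Gprasp2, all below 1, and the list with no listed gene are not drawn. Filled points have a larger term of 41 or more. Gng11 and Nt5e lie right of 0 at all 3 days, Enpp2 lies left of 0 at all 3 days, and Ptgis at day 8 and Agt at day 2 lie farthest left.

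Genes that make, break down or carry receptor ligands were listed on both sides of 1. Ptgis, the prostacyclin synthase, was 166-fold lower at day 8 by the authors' deposited table (3 reads with TGFβ against 579 with vehicle). It was lower by 9-fold on day 4 (0 against 4 reads), while its receptor Ptgir was listed at day 4 only. Hpgd, which breaks prostaglandins down, was 23-fold lower at day 8 by the authors' deposited table (0 against 11 reads). Pla2g4f was 7-fold lower at days 2 and 4 (0 against 3 reads each time). The transporter Slco2a1 stood at 11 at day 4 (5 against 0 reads). With 0 set to 3 reads, Hpgd came to 3.67-fold lower and Slco2a1 to 1.67-fold higher. Enpp2, the autotaxin gene, whose enzyme makes lysophosphatidic acid, was lower by 18.4-fold, 21.8-fold and 38.8-fold in day order by the authors' deposited table (3 against 64, 2 against 54 and 5 against 213 reads). Sphk1, which makes sphingosine 1-phosphate, stood at 5.02 at day 4 by the authors' deposited table (218 against 43 reads). The phospholipase gene Pla1a stood at 5 and 5.67 at days 4 and 8 by the authors' deposited table (2 against 0 and 8 against 1 reads). Nt5e, an enzyme that makes adenosine outside the cell, stood at 8.38, 13.2 and 23.96 by the authors' deposited table (909 against 108, 1598 against 121 and 3485 against 145 reads). Of 4 adenosine receptors 0 were listed, beside 7.32% of protein-coding RefSeq symbols listed at any day. Entpd2, Entpd3 and Panx2 lay below 1 on at most 11 reads.

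Among peptide ligands and their enzymes 9 of 36 genes were listed, beside 7.32% of protein-coding RefSeq symbols listed at any day. Their ratios above 1 numbered 2, 2 and 1 at days 2, 4 and 8, and those below 1 numbered 3, 4 and 1. With a larger term of at least 41 there were 1, 0 and 0 above and 2, 1 and 0 below. Agt, the angiotensin precursor, was 317-fold lower at day 2 by the authors' deposited table (0 against 158 reads). With 0 set to 3 reads this came to 52.7-fold. At day 4 Agt was 59.4-fold lower by the authors' deposited table (2 against 148). Of 4 RefSeq symbols beginning with Agtr, 0 were listed. Kng1 and Kng2, the kininogen genes, were lower by 23-fold and 21.7-fold (day 2) and by 13-fold and 19-fold (day 4) by the authors' deposited table. Their smallest reads with TGFβ against vehicle were 0 against 11 and 1 against 32 at day 2. At day 4 they were 0 against 6 and 0 against 9. With 0 set to 3 reads, Kng1 came to 3.67-fold (day 2) and 2-fold (day 4) lower and Kng2 to 3-fold lower at day 4. Adm2, a peptide of the adrenomedullin family, stood at 11 (day 4) and 7 (day 8) by the authors' deposited table, from 5 and 3 reads with TGFβ and 0 with vehicle. Of 40 WNT ligands and modulators 6 were listed, and Wnt9a stood at 8.06 at day 4 (197 against 24 reads) while the secreted Dkk3 was 10.8-fold lower at day 8 by the authors' deposited table (5 against 59). By the authors' deposited table Rnf43 (day 4) and Sfrp4 (day 8) were 11-fold lower, from 0 against 5 reads.

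Markers of other cell types were listed too. Of 11 epithelial and endothelial markers 6 were listed, all above 1, with 4, 3 and 3 at days 2, 4 and 8, beside 7.32% of coding symbols listed and 50.0% of ratios above 1. Cdh5, an endothelial cadherin, stood at 31, 63 and 65 by the authors' deposited table, from 15, 31 and 32 reads with TGFβ and 0 with vehicle. Krt8, an epithelial keratin, stood at 33 and 8.6 at days 2 and 4 (16 against 0 and 21 against 2 reads). The other 4 lay between 3 and 11 by the authors' deposited table, on at most 5 reads. Of 14 fibroblast markers Fap alone was listed (27 at day 8 by the authors' deposited table), of 9 leukocyte markers Itgam (lower by 9-fold on day 4 and 15-fold on day 8) and of 10 nerve and muscle markers Tubb3 (5.47 at day 4). Smallest reads with TGFβ against vehicle were 13 against 0 for Fap and 46 against 8 for Tubb3. For Itgam they were 0 against 4 (day 4) and 0 against 7 (day 8). These sides hold for the chosen lists only. Of genes looked up after their values were seen, the epithelial Krt7, Trp63, Muc1 and Itgb6 lay below 1 in all 5 of their ratios. Trp63 was lower by 39-fold on day 2 by the authors' deposited table, from 0 reads with TGFβ and 19 with vehicle. The leukocyte genes Nckap1l, Laptm5 and Cd33 lay above 1 at each day, with Nckap1l at 78.3, 45.8 and 40.3 by the authors' deposited table (117 against 1, 114 against 2 and 60 against 1 reads, TGFβ against vehicle). The muscle gene Tnnt2 stood at 12.4, 528 and 152 by the authors' deposited table. The tables give no levels, so the fibroblast label could not be checked, and the part of these cells in the receptor ratios was not tested.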

How the data were processed

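The 6 mRNA libraries of AKR-2B colonies (TGFβ or vehicle at days 2, 4 and 8, 1 each) were used through 3 ratio tables; the miRNA tables were not used here. The tables deposited by the authors hold 1 ratio (fold change) for each gene, and the values show no scaling. Per the submitters' processing notes, edgeR 3.9 and build mm10 are named without a role; no aligner or counter is named, and that step is not given in the sources used here. Per the labels, libraries were made with the TruSeq RNA Sample Prep Kit v2, and strand counting is not stated.

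Members were found by symbol, and members and gene lists were chosen with earlier results of these data known. Of the 43 members, 41 are named, and the other two are counted in the totals but not reported here; of each signalling list the 4 genes listed at the most days, then with the largest mean change, are named, and Iqgap2, Lypd1, Timp3, Med12l and the genes said to be looked up were added after their values were seen. For each ratio the smallest pair of odd whole numbers equal to it as printed (at most 9 decimals) was found, with denominators up to 400000, and reads are (term − 1)/2. On simulated pairs this gave back the pair in lowest terms for 100% of 190, 200 and 200 pairs at low, middle and high depth. Common factors were divided out before scoring, so recovery of the read numbers themselves was not checked. Intervals are exact Clopper-Pearson conditional intervals at 95% and cover counting error alone, because without molecular identifiers reads need not be independent molecules. A count of 0 was also set to 3 reads, which is a substitute value and not a bound on the ratio. Of the members, 37 matched RefSeq by symbol and 6 by synonym. Python 3.11.15, pandas 2.3.3 and scipy 1.17.1 were used. No differential test was made, since the tables hold ratios of listed genes only, the members were chosen by them, and no values per library were used.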

Additional observations from a re-analysis of the deposited data

Results flagged for a closer look

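Gprc5d, an orphan receptor gene, lay on opposite sides of 1 at different days, with a ratio of 0.111 at day 2 (0 reads with TGFβ and 4 with vehicle in the smallest pair) and 7 at day 8 (3 and 0 reads) in the authors' deposited table. Gpr152 did so as well, with 0.143 at day 4 (0 and 3 reads) and 5 at day 8 (2 and 0 reads) in the authors' deposited table. Neither difference between days was tested, as each day has 1 library per condition. Of 12 members listed at 2 or 3 days these were 2, beside 7.20% of 667 genes, and among genes with larger terms of at least 41 on each day counted the numbers were 0 of 6 members and 3 of 310 genes.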

How the results depend on the processing

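Adding 1 in place of 0.5, dividing by the geometric centre of each table's edges (0.655, 0.845 and 0.845 at days 2, 4 and 8) and setting 0 to 3 reads where the other library had more cannot move a ratio across 1 by construction, so the sides under them say nothing of stability. Centring left 56 ratios within their counting interval and moved 5 outside it. Counts of members moved with the reads required. With a larger term of at least 41, members above 1 numbered 4, 8 and 6 and below 1 3, 1 and 1 at days 2, 4 and 8, and 6 members were listed at 2 or 3 days in place of 12. Without ratios of the form of 0 reads in 1 library they numbered 5, 8 and 4 above and 3, 3 and 2 below. Adding receptors that the symbol rule does not match gave 31, 27 and 24 above and 19, 18 and 11 below. Read as vehicle over TGFβ, the counts swap to 7, 10 and 4 above and 13, 15 and 12 below. Of the 62 ratios in the signalling lists 25 had a larger term of at least 41, a limit added after seeing the data, as was leaving out Adrbk2. No paired analysis was possible because the result comes from no test: each deposited ratio already sets the libraries of 1 day against each other, and the members were chosen by these ratios. Depth limits most members: ratios at the edges rest on 1 to 3 reads.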

Other observations

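Receptor genes with names outside the rule were listed as well: 52 genes and 69 ratios, 42 above 1 and 27 below, beside 50.0% of all ratios above 1. Of these, 28 genes were olfactory, vomeronasal or taste receptors, and 12 of the 69 ratios, from 6 genes, had a larger term of at least 41, beside 37.1% of all ratios. Vipr2, a receptor for vasoactive intestinal peptide, was lower by 63-fold, 141-fold and 67-fold on days 2, 4 and 8 by the authors' deposited table, from 0 reads with TGFβ and 31, 70 and 33 with vehicle in the smallest pairs. With 0 set to 3 reads it came to 10.3-fold, 23.3-fold and 11-fold lower. Cxcr6, a chemokine receptor, stood at 3.58, 14.3 and 22.7 by the authors' deposited table (345 against 96, 464 against 32 and 623 against 27 reads, TGFβ against vehicle). The taste receptor gene Tas2r119 stood at 37, 35 and 11 by the authors' deposited table, from 18, 17 and 5 reads with TGFβ and 0 with vehicle. Cckbr, a cholecystokinin receptor, was 17-fold, 8.71-fold and 7.67-fold lower by the authors' deposited table, with 30 vehicle reads or fewer.

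Ramp2, which partners the calcitonin receptor-like receptor, was lower by 9-fold on day 4 and 38.7-fold on day 8 by the authors' deposited table. Its smallest reads were 0 with TGFβ against 4 with vehicle at day 4, and 3 against 135 at day 8. Gprin3 was lower by 17-fold (day 4, 0 against 8 reads) and 11.8-fold (day 8, 2 against 29 reads) by the authors' deposited table. Gprasp2 was lower by 13-fold (day 4, 0 against 6 reads) by the authors' deposited table. Both bind G proteins or receptors inside the cell.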
